A study of Mus musculus with 11 samples.

Results

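Chemokine ligands and chemokine receptors were examined in the livers of AMLN ob/ob-MASH mice given INT-767 or vehicle. Members were taken by gene symbol: names of the form Ccl, Cxcl, Cx3cl or Xcl with a number for ligands (43 rows of the table), and Ccr, Cxcr, Cx3cr, Ackr or Xcr with a number for receptors (22 rows). This gave 65 of the 46603 rows, with 60 different symbols, since the Ccl21 and Ccl27 genes are present in several copies. Of these, 55 rows had at least 1 count, 29 had enough counts to be tested (18 ligands and 11 receptors), and 36 did not. Cxcl11 has no symbol in the table and was found by its Ensembl identifier, so that it is described as a relative outside the 65.

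The mice were male Lep ob/ob animals (B6.V-Lep ob/JRj), which lack leptin, and were 5 to 6 weeks old when put on the AMLN diet, which is high in trans-fat, fructose and cholesterol, for 15 weeks before and throughout treatment. All had a liver biopsy, were selected for steatosis and fibrosis and were then housed singly. INT-767, a semisynthetic agonist of the bile acid receptors FXR and TGR5, was given by oral gavage at 10 mg/kg once daily for 8 weeks to 4 mice, and 7 mice received the vehicle, 0.5% carboxymethyl cellulose. Bulk liver RNA was sequenced, with 7381211 to 16022459 counts per mouse, and levels are given as CPM, the count relative to the TMM-scaled library total. Leptin deficiency and the diet were common to both groups, so that neither group is a healthy liver. The liver genes Alb, Apoa1, Ttr and Apob were abundant in every mouse, with a summed level of 58987 to 113143 CPM, and the pancreatic gene Pnlip had no count in any mouse.

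Chemokines are small secreted proteins that attract leukocytes along a gradient. They are classed by the spacing of their first cysteines as CC, CXC, CX3C and XC, and CXC chemokines that carry a Glu-Leu-Arg (ELR) motif mainly attract neutrophils. Conventional receptors signal through inhibitory G proteins, whereas the atypical receptors (Ackr) bind chemokines without G protein signalling and remove or transport them. In injured liver, Ccl2 and its receptor Ccr2 are known for the recruitment of monocytes, and Cx3cl1 with Cx3cr1 for the behaviour of monocyte-derived and resident macrophages.

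INT-767-treated livers had lower transcript levels of 5 of the 29 tested members, and of no member were they higher by the same test. The 5 were the ligands Cx3cl1, Cxcl5 and Cxcl14 and the receptors Cx3cr1 and Cxcr4, with fitted INT-767 levels between 19.3% and 49.5% of the vehicle level. These 5 calls (edgeR's quasi-likelihood test, Benjamini-Hochberg adjusted p under 0.05 over all 13880 tested genes) are 17.2% of the tested members, where 4.68% of all tested genes were called lower, 5.04% higher and 9.72% in either direction. In the same 5 genes every INT-767-treated mouse was below every vehicle-treated mouse, a pattern found in 3.65% of all tested genes. No tested member had all INT-767 values above all vehicle values, as 3.87% of all tested genes did. At an unadjusted p under 0.05, 8 members were lower (15.6% of all genes) and 2 were higher, Ccl9 and Ccl27a (17.4% of all genes). DESeq2 called 6 members lower and 1 higher, where it called 9.86% of all genes lower and 10.4% higher, and limma-voom called 5 lower and 1 higher, where it called 3.94% and 4.16%. The member called higher was Ccl9 with both. Cxcl5, Ccl24, Ccl3 and Ccr7 passed the filter on low counts through the vehicle group alone (no INT-767 mouse reached its limit of 0.919 CPM), so that their direction was fixed by the filter and these tallies over the 29 members are a description. With at least 10 counts required in every mouse these 4 were not tested, and 4 of 19 members were called lower (4.75% of the 11479 genes then tested), with 5 lower and 2 higher at an unadjusted p under 0.05. The log2 fold change was below 0 in 22 of the 29 and its median was -0.29, against 50.6% and -0.01 over all tested genes.

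**Figure D1:**
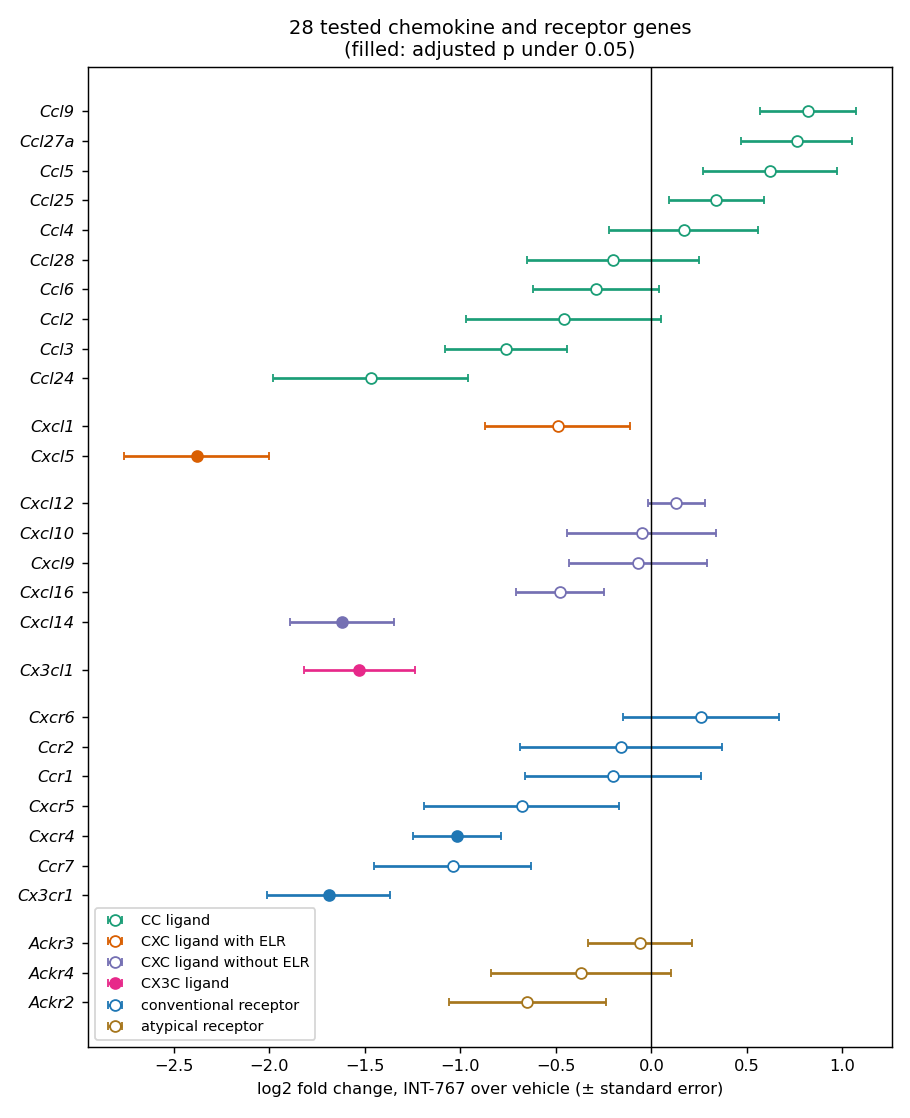
Log2 fold change of INT-767 over vehicle (horizontal axis, bars are standard errors) for 28 of the 29 tested members, grouped by class. Filled symbols have an adjusted p under 0.05 in edgeR's test and are Cxcl5, Cxcl14, Cx3cl1, Cxcr4 and Cx3cr1, all below 0.

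Liver tissue was sequenced whole, so that fewer cells of a type and less RNA per cell cannot be told apart. Some cell type markers differed between the groups as well. Macrophage and monocyte markers (Adgre1, Cd68, Csf1r, Lyz2, Ly6c2 and Itgam, all counted) summed to 454 ± 102 CPM with vehicle (SD, n = 7) and 296 ± 139 CPM with INT-767 (SD, n = 4), most of it Lyz2. Of the 5 tested, edgeR called 3 lower (Cd68, Csf1r and Itgam), where it called 4.68% of all tested genes lower. The hepatocyte markers Alb, Apoa1, Ttr and Apob summed to 64321 ± 6821 CPM with vehicle and 95205 ± 14680 CPM with INT-767, most of it Alb. None of the 4 passed the test with edgeR or limma-voom, DESeq2 called 2 higher, and at an unadjusted p under 0.05 Alb, Apoa1 and Apob were higher. Ttr had a log2 fold change of -0.32, and Alb in INT-767 mouse 4 (37768 CPM) lay inside the vehicle range of 37279 to 51570 CPM. The part of cell composition in the results was not tested.

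INT-767 mouse 4 stood apart from the other INT-767 mice for Ccl2, Ccr2, Ccl6 and Ccr1, genes of monocyte and macrophage recruitment. Vehicle mouse 1 had the highest levels of its group for the same genes, with vehicle mouse 7 next for each (Ccl2 11.4 and 9.81 CPM, Ccr2 53.9 and 37.3 CPM). The log2 fold changes of these 4 genes are given below with and without either mouse. INT-767 mouse 4 also had the highest sum in its group of Kupffer cell markers (593 CPM, the other 3 mice 172 to 302 CPM). The same held for neutrophil markers (28.6 CPM, the others 4.22 to 8.15 CPM) and the fat genes Adipoq and Plin1 (4.72 CPM, the others 0 to 0.276 CPM). It was highest too for macrophage and monocyte markers (503 CPM, the others 200 to 243 CPM), inside the vehicle range of 339 to 579 CPM. For lipid-associated macrophage markers it had 1392 CPM (the others 458 to 846 CPM). Its sums of hepatocyte and endothelial markers were the lowest of the group (78286 and 72.2 CPM).

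Per kilobase of exon, Cxcl12 was the most abundant tested chemokine gene, at 55.3 CPM per kb over all 11 mice (lowest mouse 41.1, highest 66.4), above the range of every other member. Cxcl12, made by stromal and endothelial cells, retains Cxcr4-bearing leukocytes in tissue. Ccl9 (19.5 CPM per kb, mice from 11.7 to 29.1) and Ccl6 (16.7, from 9.62 to 28.8), closely related CC ligands of Ccr1, came next and overlapped over the mice. With vehicle Ccl6 (17.9 CPM per kb) was above Ccl9 (15.3), and with INT-767 Ccl9 (26.9) was above Ccl6 (14.6). Cxcl16 (9.03 CPM per kb), Cxcl1 (7.75), Cxcl9 (5.69), Ccl2 (5.34), Ccl5 (4.85) and Cxcl14 (3.81) followed over all mice, and in that order each overlapped with the next. Among these 6 the order differed by group as well. With vehicle Cxcl14 (5.05 CPM per kb) was above Ccl5 (4.05), and with INT-767 Ccl5 (6.26) was above Ccl2 (4.26) and Cxcl14 was at 1.63. Of the receptors Ccr2 (3.68 CPM per kb, mice from 1.27 to 8.66), Cxcr4 (3.12, from 1.38 to 5.35) and Cx3cr1 (2.17, from 0.466 to 4.62) overlapped over the mice, and in the vehicle group Ccr2 and Cxcr4 had the same mean of 3.83 CPM per kb. Ccl28 was the lowest tested member at 0.148 CPM per kb.

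Of the CX3C class, the only member is Cx3cl1 (fractalkine), a ligand that is made as a membrane-bound form and shed, and it fell. Its level in the vehicle-treated livers was 6.82 CPM at the lowest, 11 at the median and 11.6 at the highest, and in the 4 INT-767-treated livers 2.80, 1.52, 3.80 and 4.95 CPM. The groups did not overlap, and INT-767 mouse 4 came nearest to the vehicle range. The means were 9.57 ± 2.15 CPM (SD, n = 7) and 3.27 ± 1.46 CPM (SD, n = 4), a log2 fold change of -1.53 (SE 0.29, edgeR adjusted p = 0.00985). For this gene and for the other 4 that fell, an exact Mann-Whitney test of the CPM values (two-sided) gave p = 0.00606, the smallest that 7 against 4 mice allow, and adjusted over all genes that test could not go below 0.0807.

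Its receptor Cx3cr1, carried by monocytes and several kinds of macrophage, fell as well. Vehicle-treated livers had 8.12 CPM at the lowest, 12.2 at the median and 20.8 at the highest, and INT-767-treated livers 6.04, 2.90, 5.07 and 2.10 CPM. Again no INT-767 value reached the vehicle range, and here INT-767 mouse 4 was the lowest of its group. The means were 13.1 ± 3.96 and 4.03 ± 1.84 CPM, a log2 fold change of -1.69 (SE 0.32, edgeR adjusted p = 0.00955). Without INT-767 mouse 2 the log2 fold change was -1.58 and the call was lost (edgeR adjusted p = 0.0518). On GRCm38 Cx3cr1 lies on chromosome 9 from 119901616 to 120069879 on the minus strand, and 1.73% of its exon bases lie under exons of Gm33858 on the other strand. Cx3cl1 lies on chromosome 8 from 94772009 to 94782427 on the plus strand, between Ccl22 and Ccl17, which were too low to test.

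CXC ligands with an ELR motif comprised 5 rows, of which Cxcl5 and Cxcl1 were tested. Cxcl5, a neutrophil-attracting ligand of Cxcr2, was called lower. It passed the filter on low counts through the vehicle group alone. Its direction was therefore fixed by the filter, and its call is a description. Vehicle-treated livers had 1.14 CPM at the lowest, 1.62 at the median and 2.39 at the highest, and INT-767-treated livers had 0.381, 0.138, 0.141 and 0.450 CPM. The latter stand for 6, 1, 1 and 6 counts, and 3 counts correspond to 0.191 to 0.422 CPM in these 4 mice, and at such counts the size of the fall is imprecise. The means were 1.63 ± 0.427 and 0.277 ± 0.162 CPM, a log2 fold change of -2.38 (SE 0.38, edgeR adjusted p = 0.0047). The sequence of Cxcl5 has 0.623% of its 75-base windows in common with other genes.

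Cxcl1, the other tested ELR ligand, held 89.8% of the summed level of the class and did not pass the test. Its vehicle values ran from 10.5 CPM over a median of 11.1 to 37.5 CPM, and its INT-767 values were 9.40, 10.2, 9.01 and 17.3 CPM. Vehicle mouse 1 and INT-767 mouse 4 were each far above the rest of their group and the groups overlapped. The log2 fold change was -0.49 (SE 0.38, edgeR adjusted p = 0.368), -0.14 without vehicle mouse 1 and -0.76 without INT-767 mouse 4. Cxcl2 (52 counts in all vehicle mice, 15 in all INT-767 mice) and Cxcl3 (0 and 3 counts) were too low to test, and Cxcl15 had no count. These 5 genes form a cluster on chromosome 5 between 90759360 and 90905938.

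CXC ligands without an ELR motif comprised 7 rows, of which 5 were tested. By edgeR 1 fell, Cxcl14, where 4.68% of all tested genes were called lower. Cxcl14 is a chemokine of epithelial and stromal cells whose signalling receptor is not settled. Vehicle-treated livers had 6.38 CPM at the lowest, 9.05 at the median and 12.3 at the highest, and INT-767-treated livers 1.97, 2.49, 2.82 and 4.65 CPM. The groups were clearly separated, the highest INT-767 value being that of mouse 4. The means were 9.23 ± 2.04 and 2.98 ± 1.16 CPM, a log2 fold change of -1.62 (SE 0.27, edgeR adjusted p = 0.00496). Cxcl14 lies on chromosome 13 from 56288643 to 56296551 on the minus strand and has no exon in common with another gene.

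Cxcl12 held 89% of the summed level of this class and was at 336 CPM at the lowest, 442 at the median and 510 at the highest with vehicle, and at 461, 435, 475 and 543 CPM with INT-767. The groups overlapped, and only INT-767 mouse 4 was above every vehicle mouse. The means were 437 ± 61.5 and 478 ± 46.1 CPM, a log2 fold change of 0.13 (SE 0.15, edgeR adjusted p = 0.542), which was -0.088 when scaled by library size only, where the median of all genes moved to -0.22.

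Cxcl16, a transmembrane and shed ligand of Cxcr6, ran from 23.5 CPM over 29.8 to 38.7 CPM with vehicle and was at 17.3, 16.3, 18 and 35.4 CPM with INT-767. In 3 of the 4 INT-767-treated livers it was below the vehicle range, and in mouse 4 it was near the top of that range. The log2 fold change was -0.48 (SE 0.23, edgeR adjusted p = 0.168), and without INT-767 mouse 4 it was -0.83 (edgeR adjusted p = 0.0216). Of its exon bases 18.3% lie under exons of Zmynd15 on the other strand, so that reads of the 2 genes may be mixed if counting ignored strand.

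Cxcl9, an interferon-induced ligand of Cxcr3, was at 7.54 CPM at the lowest, 18.9 at the median and 32.2 at the highest with vehicle and at 14.7, 18.5, 20.4 and 12.9 CPM with INT-767. All INT-767 values lay inside the vehicle range, and the log2 fold change was -0.07 (SE 0.36, edgeR adjusted p = 0.898). For Cxcl10 the log2 fold change was -0.05 (SE 0.39, edgeR adjusted p = 0.936). The sign of both turned under other models and the direction of neither was settled. Cxcl11, outside the name rule, was at 1.87 ± 0.528 CPM with vehicle and at 2.22, 4.42, 3.38 and 4.42 CPM with INT-767. Its log2 fold change of 0.93 (SE 0.27) did not pass the test (edgeR adjusted p = 0.0506). It was called higher by DESeq2 (adjusted p = 0.0222), with the GC and length offset (edgeR adjusted p = 0.0457), by limma-voom with sample weights (adjusted p = 0.0415) and in 3 fits that left out 1 mouse.

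**Figure D2:**
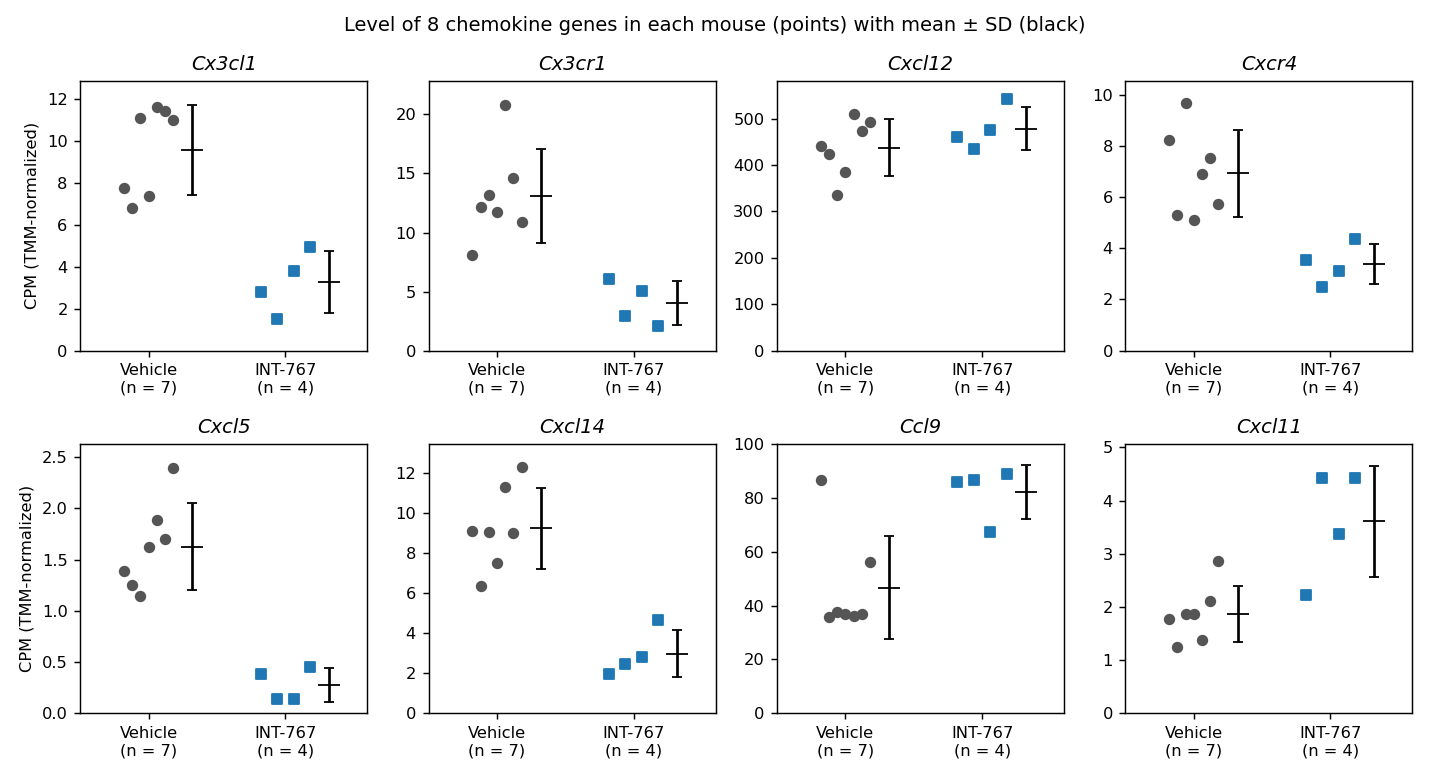
Level in CPM of 8 genes in each mouse (grey circles, vehicle, n = 7; blue squares, INT-767, n = 4), with black bars for the mean ± SD and a separate vertical axis from 0 for each gene. In Cx3cl1, Cx3cr1, Cxcr4, Cxcl5 and Cxcl14 every INT-767 point is below every vehicle point, whereas in Cxcl12, Ccl9 and Cxcl11 the groups overlap.

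CC ligands are the largest class, with 29 rows, of which 10 were tested, 9 had no count and 10 had too few counts. None of the 10 passed edgeR's test in either direction, and at an unadjusted p under 0.05 there were 2 lower (Ccl24 and Ccl3) and 2 higher (Ccl9 and Ccl27a), where 15.6% and 17.4% of all tested genes were. Both lower ones passed the filter on low counts through the vehicle group alone. DESeq2 called 1 lower (Ccl24) and 1 higher (Ccl9), and limma-voom 1 higher (Ccl9). The median log2 fold change of the 10, Ccl24 and Ccl3 included, was -0.02 and is a description. The summed level of all CC ligand rows was 103 ± 33 CPM with vehicle and 133 ± 31.5 CPM with INT-767, of which Ccl9 held 52.3%.

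Ccl9, made by macrophages and other myeloid cells, was at 35.7 CPM at the lowest, 36.9 at the median and 86.7 at the highest with vehicle, and at 85.7, 86.6, 67.2 and 88.7 CPM with INT-767. Of the vehicle-treated livers 6 were below all INT-767-treated ones, and vehicle mouse 1 lay among them. The means were 46.6 ± 19.1 and 82.1 ± 10.0 CPM, a log2 fold change of 0.82 (SE 0.25, edgeR adjusted p = 0.0544), and without vehicle mouse 1 it was 1.04 (edgeR adjusted p = 0.0045). Its neighbour Ccl6 was at 20.6, 28.6 and 50.7 CPM (lowest, median, highest) with vehicle and at 18.6, 17.3, 17.3 and 51.7 CPM with INT-767. In 3 INT-767-treated livers Ccl6 was below all vehicle values and in mouse 4 above them, with a log2 fold change of -0.29 (SE 0.33, edgeR adjusted p = 0.547), of -0.86 without INT-767 mouse 4 (edgeR adjusted p = 0.0587) and of -0.14 without vehicle mouse 1 (edgeR adjusted p = 0.752). Both lie in a cluster on chromosome 11 between 83525778 and 83664683 with Ccl3, Ccl4 and Ccl5, of which none was called.

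Ccl5, a T cell and macrophage product, was at 1.75 CPM at the lowest, 3.78 at the median and 5.83 at the highest with vehicle and at 2.80, 8.84, 5.07 and 7.34 CPM with INT-767. The groups overlapped, with INT-767 mice 2 and 4 above all vehicle mice (log2 fold change 0.62, SE 0.35, edgeR adjusted p = 0.231). Ccl3 had a log2 fold change of -0.76 (SE 0.32, edgeR adjusted p = 0.12) and Ccl4, a close relative, one of 0.17 (SE 0.39, edgeR adjusted p = 0.764), whose sign turned under other settings.

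Ccl24, an eosinophil-attracting ligand of Ccr3, had a mean of 1.00 ± 0.45 CPM with vehicle and 0.368 ± 0.254 CPM with INT-767 (log2 fold change -1.47, SE 0.51, edgeR adjusted p = 0.081). Ccl27a was at 2.95 ± 0.921 and 5.05 ± 1.45 CPM (log2 fold change 0.76, SE 0.29, edgeR adjusted p = 0.101). Since 33.3% of the 75-base windows of Ccl27a also occur in other copies of the gene, its count is uncertain. Ccl25 (log2 fold change 0.34, SE 0.25) and Ccl28 (-0.20, SE 0.45), ligands known from mucosal tissue, did not pass the test either (edgeR adjusted p = 0.342 and 0.774), and the sign of Ccl25 turned with an offset for GC content and length.

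Conventional receptors comprised 18 rows, of which 8 were tested. By edgeR 2 fell, Cx3cr1 and Cxcr4, where 4.68% of all tested genes were called lower. Cxcr4, the signalling receptor of Cxcl12 on most leukocytes, was at 5.12 CPM at the lowest, 6.91 at the median and 9.67 at the highest with vehicle, and at 3.56, 2.49, 3.10 and 4.35 CPM with INT-767. The groups did not overlap, though the highest INT-767 value and the lowest vehicle value were close. The means were 6.93 ± 1.69 and 3.37 ± 0.784 CPM, a log2 fold change of -1.02 (SE 0.23, edgeR adjusted p = 0.0223), and without INT-767 mouse 2 the call was lost at -0.92 (edgeR adjusted p = 0.0871). Cxcr4 lies on chromosome 1 from 128588199 to 128592293 on the minus strand.

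Of the receptors that did not pass the test, Ccr7, which guides dendritic cells and T cells to lymph nodes, had a log2 fold change of -1.04 (SE 0.41, edgeR adjusted p = 0.109). Cxcr5, the B cell receptor for Cxcl13, had one of -0.68 (SE 0.51, edgeR adjusted p = 0.349) and Cxcr6, found on resident lymphocytes, one of 0.26 (SE 0.41, edgeR adjusted p = 0.662), whose sign turned with an offset for GC content and length. The median over the 8 tested conventional receptors was -0.44. It is a description, since Ccr7 passed the filter on low counts through the vehicle group alone and its value lowers this median. Of the atypical receptors 3 of 4 were tested and none was called by edgeR, by DESeq2 or by limma-voom, nor at an unadjusted p under 0.05. They were Ackr2, which clears inflammatory CC chemokines (-0.65, SE 0.41, edgeR adjusted p = 0.271), Ackr4, which clears Ccl19, Ccl21 and Ccl25 (-0.37, SE 0.47, edgeR adjusted p = 0.584), and Ackr3, which clears Cxcl12 (-0.06, SE 0.27, edgeR adjusted p = 0.891).

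Genes of monocyte recruitment varied widely within both groups, and none passed the test. Ccl2 was at 3.53 CPM at the lowest, 6.18 at the median and 11.4 at the highest with vehicle, and at 1.78, 3.45, 2.11 and 12.1 CPM with INT-767. In 3 INT-767-treated livers it was below the whole vehicle range, while INT-767 mouse 4 was above it. The log2 fold change was -0.46 (SE 0.51, edgeR adjusted p = 0.53), -1.51 without INT-767 mouse 4 (edgeR adjusted p = 0.0544) and -0.29 without vehicle mouse 1 (edgeR adjusted p = 0.678).

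Its receptor Ccr2 was at 13.1 CPM at the lowest, 20.4 at the median and 53.9 at the highest with vehicle, and at 8.58, 15.1, 10.1 and 58.5 CPM with INT-767. INT-767 mouse 4 had the highest value of all 11 mice and vehicle mouse 1 the next highest. The log2 fold change was -0.16 (SE 0.53, edgeR adjusted p = 0.848), -1.21 without INT-767 mouse 4 (edgeR adjusted p = 0.11) and 0.13 without vehicle mouse 1 (edgeR adjusted p = 0.854).

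Ccr1 was at 6.29 CPM in INT-767 mouse 4, where the other 3 treated mice had 1.41 to 1.93 CPM, and at 6.09 CPM in vehicle mouse 1. Its log2 fold change was -0.20 (SE 0.46, edgeR adjusted p = 0.77), -1.02 without INT-767 mouse 4 (edgeR adjusted p = 0.14) and 0.0052 without vehicle mouse 1 (edgeR adjusted p = 0.993). Cx3cr1 did not follow this order, since INT-767 mouse 4 had the lowest Cx3cr1 level of all mice.

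**Figure D3:**
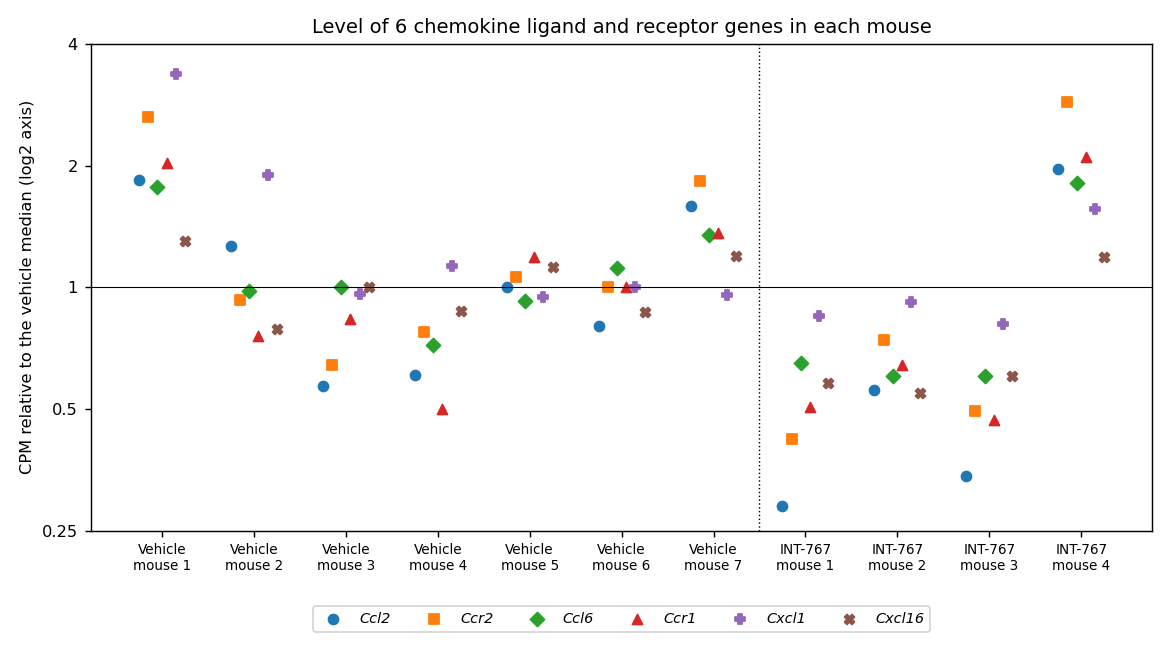
Level of 6 genes in each mouse relative to the median of the vehicle-treated mice (vertical log2 axis, 1 is the vehicle median), 7 vehicle mice on the left and 4 INT-767 mice on the right. Vehicle mouse 1 and INT-767 mouse 4 lie above 1 for all 6 genes, while in INT-767 mice 1, 2 and 3 all 6 lie below 1.

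Ligands and their receptors were then set side by side in 44 textbook pairs, 1 ligand often having several receptors. Both genes were tested in 16 pairs (15 without Cxcl11), the ligand alone in 12, the receptor alone in 7 and neither in 9. In 1 of the 16, Cx3cl1 with Cx3cr1, both genes fell. In 1, Cxcl12 with Cxcr4, the receptor fell and the ligand did not pass the test. In the other 14 neither gene was called. The sign of the log2 fold change was below 0 for both genes in 6 pairs, opposite in 10 and above 0 for both in 0, and most of these signs belong to genes that did not pass the test. The pairs are not independent, since Ccr1, Ackr2 and Ackr3 each occur in more than 1 of them.

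The third pair with a called gene was Cxcl5 with Cxcr2, whose ligand was called lower and whose receptor could not be tested. Since Cxcl5 passed the filter on low counts through the vehicle group alone, its direction was fixed and the pair is a description. Cxcr2, the main neutrophil chemokine receptor, had 1, 5, 3, 3, 9, 5 and 4 counts in the vehicle mice and 4, 2, 0 and 6 in the INT-767 mice (30 and 12 in all). The groups overlapped, and a difference in Cxcr2 was not tested. The neutrophil markers S100a8 and S100a9 had log2 fold changes of 0.31 and 0.46 (edgeR adjusted p = 0.679 and 0.571). Both rest on INT-767 mouse 4 (9.97 and 15.7 CPM), since the other 3 treated mice were at 0.422 to 3.73 CPM for S100a8 and at 0.845 to 3.18 CPM for S100a9, where the vehicle means were 3.48 and 4.09 CPM. Csf3r, the receptor for granulocyte colony-stimulating factor, fell (log2 fold change -1.49, edgeR adjusted p = 0.0173). The whole list of 6 neutrophil markers summed to 14.3 ± 1.84 and 12.1 ± 11.1 CPM. Its highest gene was Csf3r with vehicle (5.88 CPM) and, through mouse 4, S100a9 with INT-767 (5.48 CPM), with Ly6g at 6 counts over all mice.

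**Figure D4:**
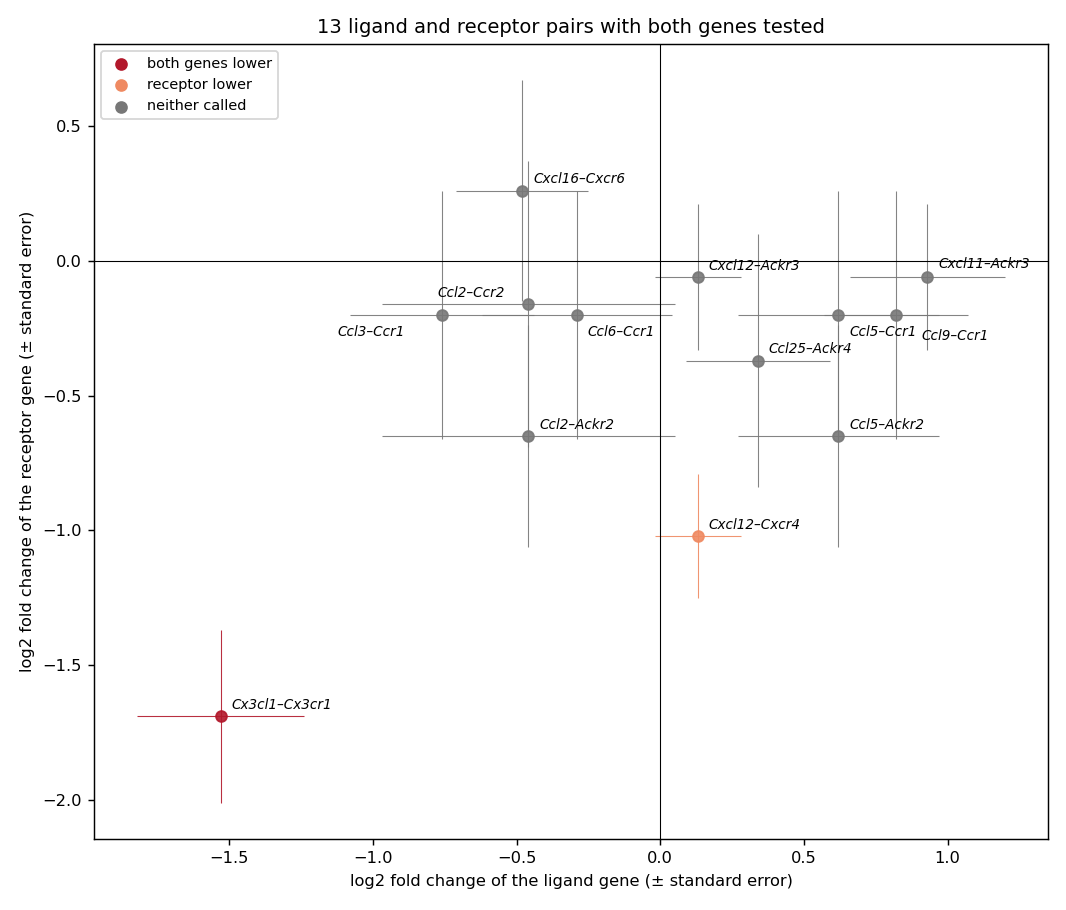
Log2 fold change of the ligand gene (horizontal axis) against that of its receptor gene (vertical axis) for 13 of the 16 pairs with both genes tested, with standard errors as bars. Cx3cl1 with Cx3cr1 (-1.53 and -1.69) lies alone at the lower left, and Cxcl12 with Cxcr4 (0.13 and -1.02) is the other pair with a called gene.

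Too low to test were 36 rows, of which 10 had no count in any mouse: 9 copies of Ccl21 and Ccl27 genes, several of them on unplaced scaffolds, and Cxcl15. Of these copies, Ccl21b and Ccl27b share 100% and 98% of their sequence windows with other genes, and Ccl21a on chromosome 4 shares 61.3%. For the copies on unplaced scaffolds this share was not measured. Reads of the Ccl21 and Ccl27 copies may have been discarded or split between copies, and a count of 0 does not bear on their transcripts. The other 26 had at most 28 counts in any mouse, and 13 of them reached 10 counts in some mouse. Their mean was lower with INT-767 in 19 and higher in 7, as a description without a test.

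Several of these genes belong to pathways named in fatty liver disease. Cxcr3, the T cell receptor for Cxcl9, Cxcl10 and Cxcl11, had 68 counts over the vehicle mice (3 to 21 in a mouse) and 11 over the INT-767 mice (1 to 7), at 0.774 ± 0.295 and 0.252 ± 0.203 CPM. It had enough counts in 5 of the alternative fits, 4 of them with 1 mouse left out, and was called lower in 1, without vehicle mouse 1 (edgeR adjusted p = 0.0371). No INT-767 mouse was above 0.525 CPM, so that it entered the 4 fits through the vehicle group alone, its direction there was fixed by the filter on low counts, and the call is a description. Without the filter on low counts it was not called (edgeR adjusted p = 0.113). Ccl7, a further ligand of Ccr2, had 70 and 14 counts, Ccl22, a ligand of Ccr4, had 57 and 19, and Ackr1, which binds chemokines on red cells and venules, had 63 and 19. Xcr1, the receptor of cross-presenting dendritic cells, had 42 and 45 counts, at 0.527 ± 0.355 and 0.940 ± 0.581 CPM, and its ligand Xcl1 had 41 and 13. For Ccr4, Ccr8, Cxcr1, Ccl1 and Ccl26 there were at most 5 counts in either group.

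Promoter sequences of the members were compared as a description of what they share. RefSeq promoter entries (GRCm38.p6) were found for 45 of the 60 symbols, 52 promoters in all, and the 250 bases before each start were searched on both strands unless stated. The kappa-B motif (GGG and CC with any 5 bases between), the kind of site bound by NF-kappa-B, occurred in 27 of the 52 (51.9%) and in 45.8% of all 32851 mouse promoters, and among the members that fell with an entry (4, all but Cxcl5) in 1, Cx3cr1. The textbook FXR site, an inverted repeat of AGGTCA with any 1 base between the copies, occurred in 0 of the 52 and in 2 of all promoters (0.00609%). The TATA box TATAAA, searched on the gene's strand and chosen after the promoters were seen, occurred in 12 of the 52 (23.1%) and in 7.59% of all promoters. A match of letters is not a site, and its absence here says only that these letters are not in this window.

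The promoters of Cxcr4 (chr1:128592300-128592549, minus strand) and Cxcl14 (chr13:56296552-56296801, minus strand) are shown as 2 of the members that fell, 1 with and 1 without a TATA box. Capitals mark TATAAA, whose first base in Cxcr4 lies 30 bases before the start.
Cxcr4: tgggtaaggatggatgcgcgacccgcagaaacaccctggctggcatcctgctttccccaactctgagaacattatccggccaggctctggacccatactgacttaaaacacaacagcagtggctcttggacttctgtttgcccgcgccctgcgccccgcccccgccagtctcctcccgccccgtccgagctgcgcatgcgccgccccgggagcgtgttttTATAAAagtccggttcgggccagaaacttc
Cxcl14: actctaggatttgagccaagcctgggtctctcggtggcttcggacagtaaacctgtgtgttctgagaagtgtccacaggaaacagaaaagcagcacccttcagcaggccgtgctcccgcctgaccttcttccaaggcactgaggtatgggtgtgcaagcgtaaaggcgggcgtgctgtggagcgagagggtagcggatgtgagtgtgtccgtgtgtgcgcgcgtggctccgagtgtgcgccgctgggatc

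Genes that act downstream of chemokine receptors were examined as a list of 45 tested genes, of which 8 fell and 0 rose (edgeR, 4.68% and 5.04% of all tested genes). At an unadjusted p under 0.05, 23 were lower and 2 higher (15.6% and 17.4% of all tested genes), DESeq2 called 16 lower and 0 higher, and limma-voom called 7 lower and 0 higher. Over all genes the share called lower was 9.86% with DESeq2 and 3.94% with limma-voom. The median log2 fold change was -0.54. The call with the smallest p was Adrbk2, which encodes a kinase of the GRK family that phosphorylates activated receptors. Its 4 INT-767 values were 6.93, 4.15, 6.76 and 4.50 CPM, all below the lowest vehicle value of 14.7 CPM. The means were 19.5 ± 4.08 CPM with vehicle and 5.58 ± 1.46 CPM with INT-767 (log2 fold change -1.80, edgeR adjusted p = 0.00185).

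The other 7 that fell were Pik3r5 (log2 fold change -1.78) and Pik3cd (-1.53), subunits of PI3-kinases of leukocytes, Elmo1 (-1.46) and Prex1 (-1.38), which take part in the activation of Rac, the kinase Src (-1.09), the arrestin Arrb2 (-0.78) and the G protein subunit Gng2 (-0.74). The broadly expressed Gnai2 (0.04), Rac1 (0.03) and Cdc42 (0.09) did not pass the test. Several genes that fell are expressed mainly by leukocytes, whose markers are given above, and the part of cell composition was not tested. Between 1 and 22 genes of the combined list with inducers and relatives were called lower when single mice were left out. The lowest count was without INT-767 mouse 2, where 0.767% of all tested genes were called lower, and the highest without vehicle mouse 1, where 9.86% were.

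Inducers of chemokine genes were tested for 22 of 28 (Il13 and Il17a had no count). None was called by edgeR or limma-voom, 7 were lower and 0 higher at an unadjusted p under 0.05, and DESeq2 called 3 lower. Over all tested genes 15.6% were lower at that unadjusted p, and DESeq2 called 9.86% lower. Their median log2 fold change was -0.30. Tnf was at 0.908 ± 0.283 and 0.370 ± 0.271 CPM (log2 fold change -1.15, edgeR adjusted p = 0.0939) and passed the filter on low counts through the vehicle group alone. Its direction was therefore fixed by the filter. The tally of 7 and the median of -0.30 include Tnf and are a description. The kappa-B subunit Rela was at 43.5 ± 6.14 and 32.6 ± 4.89 CPM (log2 fold change -0.42, adjusted p = 0.0851 by edgeR) and Il1b at 1.83 ± 0.515 and 2.07 ± 1.31 CPM (0.18, adjusted p = 0.755 by edgeR).

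Relatives of chemokines outside the name rule held 6 tested genes, of which edgeR called 1 higher and 0 lower. It called 5.04% of all tested genes higher and 4.68% lower. DESeq2 called 1 higher and 2 lower, where it called 10.4% and 9.86% of all tested genes. Rarres2, which encodes the leukocyte attractant chemerin and is mainly a product of hepatocytes and fat cells, was at 203 ± 16.9 CPM with vehicle and 388 ± 101 CPM with INT-767 (log2 fold change 0.93, edgeR adjusted p = 0.00636). Its receptor gene Cmklr1 was at 8.97 ± 4.49 and 3.45 ± 1.99 CPM (log2 fold change -1.37, edgeR adjusted p = 0.0844), and it was called lower by DESeq2 (adjusted p = 0.0276) and without vehicle mouse 1 (log2 fold change -1.52, edgeR adjusted p = 0.0303). Pf4, a platelet and macrophage CXC chemokine that was named before the systematic symbols, had a log2 fold change of -1.0 (edgeR adjusted p = 0.0536) and was called lower by DESeq2 (adjusted p = 0.0171) and limma-voom (adjusted p = 0.0436). Mif, Ccrl2 and Cklf did not pass the test.

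Further cell type markers moved with these results in part. Of the 5 stellate cell markers edgeR called Pdgfrb and Col1a1 lower, where it called 4.68% of all tested genes lower. The stellate cell list summed to 349 ± 184 CPM with vehicle and 142 ± 39.4 CPM with INT-767. Its most abundant marker was Col1a1 with vehicle (158 CPM) and Reln with INT-767 (69.1 CPM, Col1a1 20.2 CPM). Of the 4 markers of lipid-associated macrophages Cd9 fell (edgeR, 4.68% of all tested genes), and the list summed to 1192 ± 436 and 825 ± 411 CPM, most of it Spp1. Kupffer cell markers summed to 312 ± 50.4 and 317 ± 192 CPM, most of it Cd5l, and cholangiocyte markers to 40.9 ± 10.3 and 26.9 ± 10.5 CPM, most of it Epcam. Endothelial markers summed to 143 ± 45.4 and 102 ± 29.1 CPM, with Stab2 the highest in both groups (56.9 and 29 CPM). The T cell list, led by Lck, summed to 6.09 ± 1.90 and 4.10 ± 0.412 CPM, the B cell list (highest Cd79b with vehicle and Ms4a1 with INT-767) to 5.36 ± 3.80 and 4.09 ± 1.63 CPM, and the dendritic cell list, led by Zbtb46, to 16.7 ± 2.70 and 15.1 ± 0.941 CPM. NK cell markers (highest Nkg7 with vehicle and Gzma with INT-767) summed to 3.21 ± 0.934 and 3.31 ± 0.83 CPM, and eosinophil and mast cell markers to 1.17 ± 0.393 and 1.24 ± 0.755 CPM, led by Siglecf and with Epx at 0. Platelet markers, led by Itga2b, summed to 4.28 ± 0.66 and 3.18 ± 1.31 CPM and red cell markers, led by Hbb-bs, to 168 ± 65.8 and 216 ± 105 CPM. The pancreatic list summed to 18.7 ± 3.41 and 13 ± 4.93 CPM, nearly all of it Cela1, with Pnlip at 0.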

How the data were processed

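Liver mRNA of 11 mice was sequenced, 7 given vehicle and 4 given INT-767, grouped by the sample labels. The authors deposited 1 table of raw read counts per gene, made from stranded libraries aligned to GRCm38. STAR 2.4.0 is named in the submitters' processing notes and another release in the study's methods. Neither the counting program nor its strand setting is given in the sources used here. All sample columns were used (0 were left out).

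Counts were scaled by TMM, filtered with filterByExpr (minimum count 10, minimum total 15) and tested in edgeR 4.0.16 (R 4.3.3) with glmQLFit (robust) and glmQLFTest on 13880 genes, with Benjamini-Hochberg adjustment over all of them and a threshold of 0.05. Exact Mann-Whitney p-values (two-sided) were enumerated over all 330 assignments of the mice. Each standard error was taken from the log2 fold change and its F statistic. p-values measure the spread between these mice. Floors of 3 counts cover counting error only. The closest pair of libraries differed by a median chi-square per gene of 1.03, where 2 draws of 1 library give 0.455, so that no library was a copy. Coordinates, exon lengths and overlaps come from GENCODE M21, and promoters from RefSeq GRCm38.p6. For ELR motifs, textbook class was used.

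Members, pairs, lists and markers were chosen with earlier results of these data known. The values of 1 tested member and 2 list genes are not reported here, though counts of members, pairs and list genes include them. Values for each mouse are given for called members, members of pairs with a called gene and the 10 most abundant per length, and, chosen after their values were seen, for Cxcl11 and Adrbk2.

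Alternatives were other scaling factors, filters, limma-voom 3.58.1 with and without sample weights, DESeq2 1.42.0, an offset for GC content and transcript length (lowess, span 0.3), a replicate block, leaving out each mouse and a threshold of 0.01. Each tool was tested on simulated data for this comparison (13880 genes, 200 of them with a log2 change of 2). The share of those 200 that was found was 91% with edgeR, 88% with limma-voom and 94% with DESeq2, with 6, 5 and 35 false calls. Figures were drawn with matplotlib 3.10.9 (Python 3.11.15).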

Additional observations from a re-analysis of the deposited data

Results flagged for a closer look

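In each group of 4 to 10 mice, a mouse was marked where its gap to the nearest other mouse was over the 95% limit of Dixon's test for a single outlying value. Over 82 groups (the levels of 39 genes and the sums of 2 classes, in both groups of mice) 9 were marked, where chance alone marks about 1 in 20 groups. INT-767 mouse 4 was marked for Ccl2 (12.1 CPM), Ccr2 (58.5 CPM), Ccl6 (51.7 CPM), Ccr1 (6.29 CPM), Cxcl16 (35.4 CPM) and Cxcl1 (17.3 CPM), in each case as the highest of its group. Vehicle mouse 1 was marked as the highest for Ccl9 (86.7 CPM) and Cxcl1 (37.5 CPM). INT-767 mouse 3 was marked as the lowest of its group for Ccl9 (67.2 CPM).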

How the results depend on the processing

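The 5 members called lower kept the call with RLE and upper-quartile factors, library size only, no filter, DESeq2, both limma-voom fits and the offset for GC content and length. With at least 10 counts in every mouse Cxcl5 was not tested and the other 4 kept it. The mouse numbers do not pair the mice (correlations of deviations -0.712, 0.232, 0.181 and -0.502 over the 4 shared numbers), and with a replicate block, alone or with the GC and length offset, 0 genes of the whole table were called: ligands called lower went from 3 to 0, receptors called lower from 2 to 0, and genes of the signalling and inducer list from 8 lower to 0 and from 1 higher to 0 (edgeR, 5 members lower and 1 higher at an unadjusted p under 0.05 with the block alone). With the block the log2 fold change was -1.47 for Cxcl14, -2.24 for Cxcl5, -1.40 for Cx3cl1, -1.04 for Cxcr4 and -1.57 for Cx3cr1, with an adjusted p by edgeR of 0.328, 0.311, 0.328, 0.416 and 0.35. At a threshold of 0.01 receptors called lower went to 1 and list genes called lower to 1. Ligands called higher went from 0 to 1 (Ccl9) with DESeq2, the GC and length offset and both limma-voom fits. List genes called lower went to 21 with DESeq2, 15 with library size only and 18 with sample weights, where list genes called higher went to 3. Leaving out single mice gave 0 to 1 ligands higher, 3 to 4 ligands lower and 0 to 3 receptors lower, the lowest counts of receptors without INT-767 mouse 2. In the signalling and inducer list these fits gave 1 to 3 genes higher and 1 to 22 genes lower. The counts of lower ligands include Cxcl5, and the count of 3 receptors includes Cxcr3 (without vehicle mouse 1). Both genes entered these fits through the vehicle group alone, so that their calls are a description. Ccl27a was called higher without INT-767 mouse 1 (edgeR adjusted p = 0.047). DESeq2 and the GC and length offset called Ccl24 lower (adjusted p = 0.0498 and 0.0451), and sample weights Cxcl16 (adjusted p = 0.0395, limma-voom). Ccl24 passed the filter on low counts through the vehicle group alone, so that its calls are a description. The cause of these changes was not tested.

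Signs turned for members near 0, none of them called. With the GC and length offset the log2 fold change was -0.17 for Ccl4, -0.16 for Ccl25, 0.061 for Ackr3 and -0.10 for Cxcr6, and with that offset and the block -0.15 for Ccl25, 0.22 for Cxcl10, 0.088 for Ackr3 and -0.044 for Cxcr6. With the block alone it was 0.0051 for Cxcl9, 0.29 for Cxcl10 and 0.00015 for Ackr3. With library size only it was -0.071 for Ccl4 and -0.088 for Cxcl12. Limma-voom gave 0.073 for Cxcl9 and 0.066 for Cxcl10, and with sample weights 0.51 and 0.49, and -0.021 for Ccl4. Leaving out single mice gave ranges of -0.22 to 0.35 for Ccl4, -1.02 to 0.033 for Ccr1, -0.21 to 0.14 for Cxcl9, -0.24 to 0.10 for Cxcl10, -0.31 to 0.16 for Ackr3, -0.0081 to 0.58 for Cxcr6, -1.21 to 0.13 for Ccr2 and -0.23 to 0.083 for Ccl28.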
